A study of Homo sapiens with 4 samples.

Results

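TGF-beta signalling was described in RKO cells through 8 genes: the ligand TGFB1, the receptors TGFBR1 and TGFBR2, the signal carriers SMAD2, SMAD3 and SMAD4, the inhibitory SMAD7 and the corepressor SKIL. Members were taken by gene symbol, and all 8 had a row in both tables, out of 13092 genes in all. RKO is an established, poorly differentiated human colon carcinoma line that is deficient in DNA mismatch repair. One library came from RKO cells with HADH-S overexpression and one from RKO control cells labelled WT, so there were no replicates and no test between the conditions exists. HADH-S is a form of hydroxyacyl-CoA dehydrogenase, a mitochondrial enzyme of fatty acid oxidation, which the series title calls nuclear. The vector, the culture time and whether the overexpressing cells were a clone or a pool are details not given in the sources used here. The comparison served to look for target genes of HADH-S.

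TGF-beta is secreted in a latent complex and, once released, binds a dimer of the type II receptor (TGFBR2), which recruits and phosphorylates the type I receptor (TGFBR1). TGFBR1 phosphorylates SMAD2 and SMAD3, which join SMAD4, enter the nucleus and act on target genes, SMAD7 and SKIL among them. SMAD7 then blocks the receptor and SKIL holds back the SMAD complex, so both close feedback loops. In normal colon epithelium the pathway restrains growth, and in mismatch-repair deficient colon cancers the coding sequence of TGFBR2 is a frequent site of frameshifts in a run of adenines. The tables hold levels only, so the TGFBR2 sequence of these cells was not examined.

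With HADH-S the ligand gene TGFB1 was higher and the type I receptor gene TGFBR1 and the corepressor gene SKIL were lower, each by less than 1.5-fold. SMAD2, SMAD4, SMAD7 and TGFBR2 had ratios that counting error alone could bridge to 1. SMAD3 had few reads in both libraries, 2 with HADH-S and 14 in the control. Its ratio of 0.139 had a wide interval below 1 (0.0153 to 0.605). Values are RPKM (reads per kilobase of transcript, scaled to library size). Each ratio is HADH-S over control with a 95% counting interval, which is exact and conditional on the recovered reads, and covers counting error only. The log2 value is the difference in log2(RPKM + 1), HADH-S minus control, a scale that understates the change of low genes. To be set beside all others, a gene had to average 1 RPKM or more across the libraries. That left 10331 genes and 6 of the 8 members, SMAD3 and SMAD7 being too low. A fold of 1.5 on the log2 scale served as the limit of size, which says nothing of significance.

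The HADH-S library held 6963608 reads and the control library 6773421. HADH, the overexpressed gene, had an RPKM ratio of 2.05 (1.79 to 2.35), in the direction of the label. Genes without a read have no row. The mismatch repair list had 7 genes past the filter, with a median log2 value of -0.05. The counting interval lay under 1 for 1 of them (14.3%, beside 11.6% of all genes tested) and over 1 for 0 (beside 13.8%). Of 8 epithelial markers 4 had rows, among them KRT18 at 93.8 RPKM with HADH-S against 91.7, and EPCAM at 9.57 against 8.20. CDH1, the E-cadherin gene, had none, so the epithelial label was only partly borne out by its markers. Of 9 fibroblast markers 3 had rows, with a summed 0.116 RPKM with HADH-S and 0.0553 in the control. None of 8 leukocyte and 5 endothelial markers had a row.

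The order of levels was the same in both libraries. TGFB1 was highest, followed by TGFBR1, SMAD4, TGFBR2, SMAD2, SKIL, SMAD7 and SMAD3. Counting intervals of neighbours did not overlap, except for SMAD7 and SMAD3 in the control. RPKM is already divided by length, so these levels can be compared between genes, with a reservation for SMAD2 given below.

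**Figure D1:**
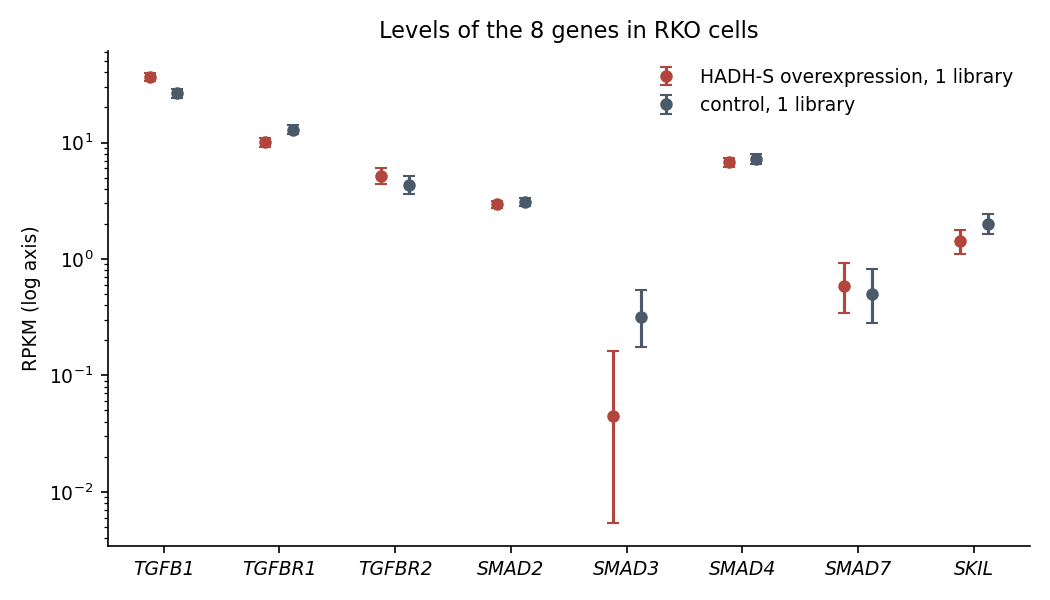
RPKM of the 8 genes on a log axis in the library of HADH-S overexpressing cells and in the control library, with bars for exact Poisson 95% intervals of the reads. TGFB1 stands at 36.6 and 26.4 RPKM, while SMAD3 lies below 0.4 RPKM in both libraries.

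TGFB1 encodes the main epithelial TGF-beta ligand (ENSG00000105329, on chromosome 19 from 41330323 to 41353922 in GRCh38.p14). It was at 36.6 RPKM with HADH-S, from 708 reads, and at 26.4 RPKM in the control, from 498 reads. The ratio was 1.38 (1.23 to 1.55), and the Poisson intervals of both levels did not overlap. The log2 value of 0.45 lay at percentile 96.6 of all genes tested, whose central 95% ran from -0.36 to 0.49. TGFB1 thus stood near the upper edge of the general spread between the libraries and inside it. In bulk RNA, more cells with a transcript and more transcript per cell cannot be told apart. By level it ranked at percentile 83.6 of the listed genes with HADH-S and 77.7 in the control.

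TGFBR1 encodes the type I receptor kinase that phosphorylates the SMADs (ENSG00000106799, on chromosome 9 from 99103647 to 99154192). It was at 10.02 RPKM with HADH-S, from 414 reads, and at 12.9 RPKM in the control, from 517 reads. The control library was higher, without overlap of the level intervals, and the ratio was 0.779 (0.683 to 0.888). Its log2 value of -0.33 lay at percentile 3.29 of all genes tested, inside the central 95%.

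TGFBR2 encodes the type II receptor that binds the ligand (ENSG00000163513, on chromosome 3 from 30606356 to 30694142). It was at 5.21 RPKM with HADH-S, from 167 reads, and at 4.33 RPKM in the control, from 135 reads. The level intervals overlapped, and the ratio of 1.203 had an interval of 0.953 to 1.52 that included 1. The log2 value was 0.22, at percentile 84.9. TGFBR2 overlaps another annotated gene, LOC105377015, and the strand setting of the counting is not given in the sources used here.

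The ratios of the receptor genes lay on opposite sides of 1. This was also examined within each library, where no scaling between libraries enters. TGFBR1 stood at 1.92 times the RPKM of TGFBR2 with HADH-S (1.60 to 2.32) and at 2.97 times in the control (2.45 to 3.62). This receptor ratio with HADH-S was 0.647 of that in the control, with an exact conditional interval of 0.494 to 0.848. TGFB1 over TGFBR1 was 3.65 with HADH-S (3.23 to 4.13) and 2.06 in the control (1.81 to 2.33), a factor of 1.78 between the libraries (1.49 to 2.12). For TGFB1 over TGFBR2 the factor was 1.15 (0.883 to 1.49). TGFB1 over SMAD4 differed by a factor of 1.48 (1.23 to 1.77), and TGFBR1 over SMAD4 by 0.832 (0.687 to 1.01), which includes 1. The ligand thus differed relative to the type I receptor by more than counting error, and relative to the type II receptor by an amount that counting error covers. The 10 pairs were chosen after the values had been seen, and these intervals hold no variation between cultures.

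**Figure D2:**
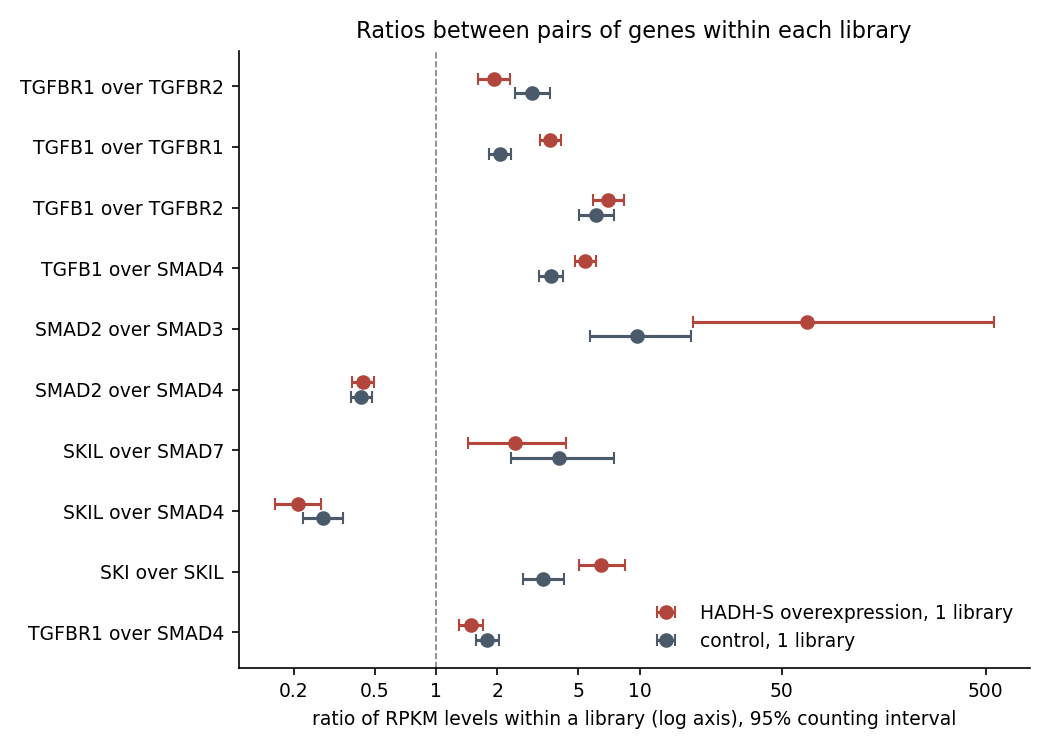
RPKM ratios of the 10 gene pairs within each library on a log axis, with exact 95% counting intervals. The intervals of the libraries do not overlap for TGFBR1 over TGFBR2, TGFB1 over TGFBR1, TGFB1 over SMAD4, SMAD2 over SMAD3 (on 2 SMAD3 reads with HADH-S) and SKI over SKIL, and overlap for the rest.

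SMAD2 and SMAD3 are paralogs that the activated receptor phosphorylates, and they were at very different levels. SMAD2 (ENSG00000175387, on chromosome 18 from 47808957 to 47930872) was at 2.95 RPKM with HADH-S, from 711 reads, and at 3.10 RPKM in the control, from 727 reads. The level intervals overlapped, with a ratio of 0.951 (0.857 to 1.06) and a log2 value of -0.05. SMAD3 (ENSG00000166949, on chromosome 15 from 67065602 to 67195169) had 2 reads with HADH-S, or 0.0444 RPKM, and 14 reads in the control, or 0.320 RPKM. The ratio of 0.139 had a wide interval of 0.0153 to 0.605. The control library was higher and the level intervals did not overlap, but 3 reads correspond to 0.0666 RPKM for SMAD3 at the depth of the HADH-S library, so the level with HADH-S was under the floor. The antisense gene SMAD3-AS1 overlaps SMAD3, and without a stated strand setting its reads cannot be told apart from those of SMAD3.

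The SMAD2 row was counted on a transcript of 34626 nt, the second longest in the tables, of which 95.95% is non-coding. The median transcript length over all genes was 3138 nt. Dividing the reads by coding length instead, a calculation added after the data had been seen, put SMAD2 at 72.9 with HADH-S and 76.6 in the control, in RPKM per coding length. On that scale TGFB1 was at 86.9 and 62.8, TGFBR1 at 39.1 and 50.2, and SMAD4 at 35.7 and 38.2. SMAD2 then ranked 2 with HADH-S and 1 in the control rather than 5 in both. SMAD3 stayed last on this scale, at 0.225 and 1.62. The rank of SMAD2 among the members therefore depends on the length used, while its ratio between libraries does not.

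SMAD4 encodes the common partner of the receptor-activated SMADs (ENSG00000141646, on chromosome 18 from 51030213 to 51085042). It was at 6.74 RPKM with HADH-S, from 412 reads, and at 7.20 RPKM in the control, from 428 reads, a ratio of 0.936 (0.816 to 1.07). The level intervals overlapped. The level of SMAD2 was 0.437 of that of SMAD4 in the HADH-S library and 0.430 in the control library, a factor of 1.02 (0.854 to 1.21).

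SMAD7 encodes the inhibitory SMAD that is itself induced by the pathway (ENSG00000101665, on chromosome 18 from 48919853 to 48950965). It was at 0.584 RPKM with HADH-S, from 18 reads, and at 0.5001 RPKM in the control, from 15 reads. The ratio of 1.17 had an interval of 0.556 to 2.49, so counting error at this depth left ratios on both sides of 1 possible. SKIL encodes SnoN, a corepressor that binds SMAD complexes and is degraded and then resynthesised when the pathway is active (ENSG00000136603, on chromosome 3 from 170357715 to 170396849). It was at 1.42 RPKM with HADH-S, from 71 reads, and at 2.01 RPKM in the control, from 98 reads. The level intervals overlapped, but the ratio of 0.705 had an interval of 0.512 to 0.966, just below 1. At 99% the interval reached 1.06 and included 1. Its log2 value of -0.32 lay at percentile 3.78 of all genes tested. Relative to SMAD4 within each library, SKIL was at 0.210 with HADH-S and 0.280 in the control, a factor of 0.753 whose interval of 0.530 to 1.06 included 1.

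The promoter windows of the SMAD2 and SMAD3 pair and of the feedback genes SMAD7 and SKIL are shown because the first are paralogs at very different levels and the others are both feedback targets. Each window runs from 250 bases before to 50 bases after the outermost RefSeq start of the gene (GRCh38.p14), on the gene's strand from 5′ to 3′. The positions are chr18:47930823-47931122 for SMAD2 (minus strand), chr15:67065352-67065651 for SMAD3 (plus strand), chr18:48950916-48951215 for SMAD7 (minus strand) and chr3:170357465-170357764 for SKIL (plus strand). Capitals mark matches to GGCGCC, a GC-rich element of the kind that SMAD proteins bind.
SMAD2: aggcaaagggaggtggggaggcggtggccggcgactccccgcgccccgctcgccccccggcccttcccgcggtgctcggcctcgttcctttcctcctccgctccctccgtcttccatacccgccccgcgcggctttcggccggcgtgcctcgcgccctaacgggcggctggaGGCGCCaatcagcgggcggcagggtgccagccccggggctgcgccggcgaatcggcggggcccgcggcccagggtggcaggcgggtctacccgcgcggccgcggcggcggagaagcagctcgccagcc
SMAD3: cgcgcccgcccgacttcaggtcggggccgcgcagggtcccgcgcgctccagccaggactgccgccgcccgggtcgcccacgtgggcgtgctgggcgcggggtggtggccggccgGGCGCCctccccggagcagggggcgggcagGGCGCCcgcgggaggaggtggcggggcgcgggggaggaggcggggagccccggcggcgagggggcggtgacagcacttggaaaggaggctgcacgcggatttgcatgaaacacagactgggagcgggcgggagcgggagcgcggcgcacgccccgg
SMAD7: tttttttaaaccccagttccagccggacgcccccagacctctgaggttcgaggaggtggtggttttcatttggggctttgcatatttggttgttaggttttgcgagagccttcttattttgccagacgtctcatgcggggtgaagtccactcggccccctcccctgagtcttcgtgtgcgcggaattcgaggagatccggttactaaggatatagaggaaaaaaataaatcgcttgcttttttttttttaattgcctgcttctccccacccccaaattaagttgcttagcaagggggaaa
SKIL: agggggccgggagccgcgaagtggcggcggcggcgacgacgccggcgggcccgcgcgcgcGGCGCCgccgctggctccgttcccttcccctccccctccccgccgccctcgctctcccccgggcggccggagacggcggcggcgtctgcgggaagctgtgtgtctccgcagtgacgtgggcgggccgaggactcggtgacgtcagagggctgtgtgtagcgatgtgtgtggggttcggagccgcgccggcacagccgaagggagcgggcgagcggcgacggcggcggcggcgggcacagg

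Searched on both strands were CAGACA (the core of the CAGA box), GTCTAGAC (the palindromic SMAD-binding element, which overlaps the CAGA box in part), TGANTCA (the AP-1 element) and GGCGCC. All but the CAGA box read the same on both strands. The first 3 had no match in the outermost windows of the 8 members. GGCGCC matched in 4 of these 8 windows, those of SMAD2, SMAD3, SMAD4 and SKIL. The matches in the outermost windows began at -78 for SMAD2, at -136 and -106 for SMAD3, at -125 for SMAD4 and at -190 for SKIL, counted from the start site. Shares of all windows cover every RefSeq start, so the like measure is the 23 windows at all starts of the members. GGCGCC matched in 6 of these 23, beside 19.2% of all 35116 RefSeq windows of this length. The CAGA core matched in 3 of the 23, the AP-1 element in 2 and the palindromic SMAD element in 0. Of all windows 16.9% held the CAGA core, 7.71% the AP-1 element and 0.202% the palindromic SMAD element. The windows of SMAD2, SMAD3 and SKIL held 45, 44 and 52 CpG dinucleotides, against 13 for SMAD7 and a median of 14 over all windows. SMAD2 and SMAD3, at opposite ends in reads, thus had outermost windows alike in CpG content and in this motif. Which start RKO cells use was not examined, and RefSeq gives further starts for TGFBR1, TGFBR2, SMAD2, SMAD3 and SMAD7.

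None of the 6 members that passed the filter on low values reached a fold of 1.5 in either direction, a limit passed upward by 1.47% and downward by 0.436% of the 10331 genes. A fold of 2, passed by 0.300% and 0.0484% of all genes, was likewise reached by none of them. A fold of 1.2 was reached upward by TGFB1 and downward by TGFBR1 and SKIL, beside 11.5% and 6.76% of all genes. Of the 6, TGFB1 (1 gene) had its counting interval above 1, and TGFBR1 and SKIL (2 genes) below 1, where 13.8% of all genes tested lay above and 11.6% below. SMAD3, outside the filter, also had an interval below 1. The median log2 value of the 6 was -0.07, beside 0.01 for all genes tested.

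**Figure D3:**
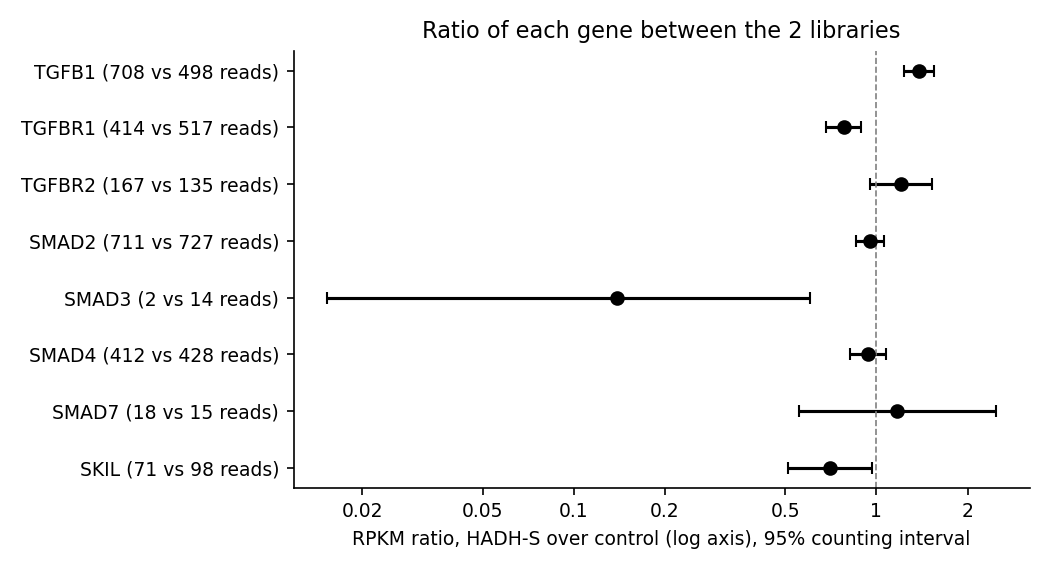
RPKM ratios of the 8 genes, HADH-S over control, on a log axis with exact 95% counting intervals, and with the reads of both libraries in the labels. TGFB1 lies above 1, TGFBR1, SKIL and SMAD3 lie below 1, and the intervals of the other 4 genes include 1.

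**Figure D4:**
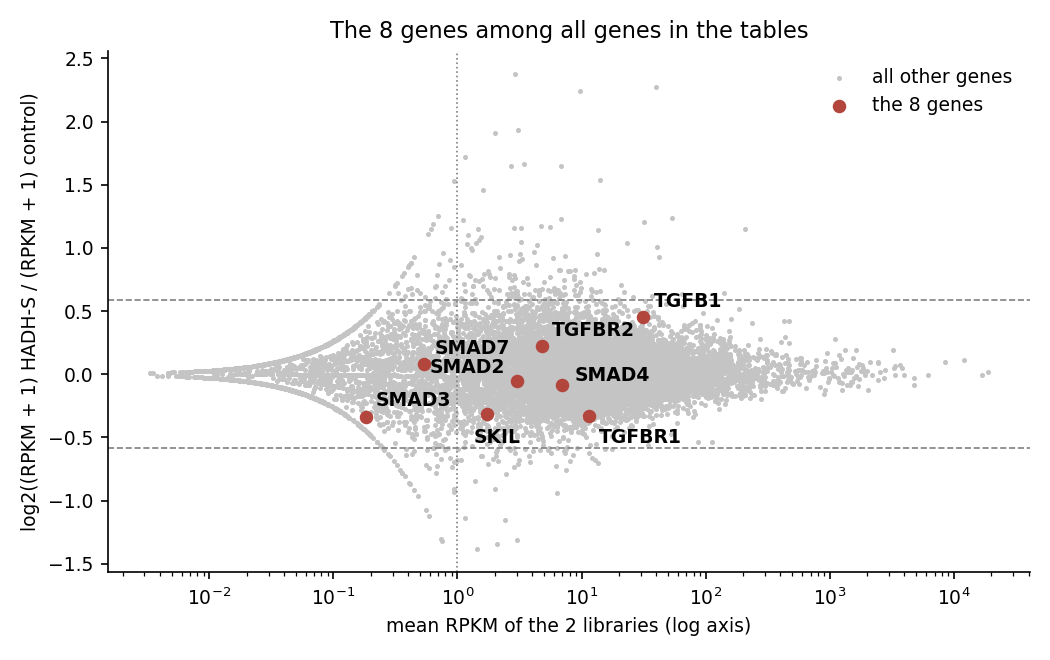
The log2 value of each gene against its mean RPKM on a log axis, with the 8 genes in red, dashed lines at a fold of 1.5 in each direction and a dotted line at a mean RPKM of 1. All 8 genes lie between the dashed lines.

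SMAD2, SMAD7 and SMAD4 lie together on the long arm of chromosome 18, within 3.28 Mb, a stretch often lost in colorectal cancer. RefSeq places 20 protein-coding genes from SMAD2 to SMAD4, of which 17 had a row and 12 passed the filter. Of these 12, the 10 that are not members had a median log2 value of 0.02, between -0.17 and 0.27. SMAD2 (-0.05) and SMAD4 (-0.08) lay within that range, and so did SMAD7 (0.08), which did not pass the filter. Among the 10, the counting interval lay above 1 for 1 gene and below 1 for 0, beside 13.8% and 11.6% of all genes tested.

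Genes around the members were grouped by role in 9 lists with 189 genes, of which 139 had a row and 111 passed the filter. Their median log2 value was 0.01, beside 0.01 for all genes tested. A fold of 1.5 was reached upward by 4 of the 111 (ID1, ID3, GDF15 and LTBP4), or 3.60% beside 1.47% of all genes, and downward by 1 (ACVR1B), or 0.901% beside 0.436%. Counting intervals lay above 1 for 20 (18.02%, beside 13.8%) and below 1 for 16 (14.4%, beside 11.6%).

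TGFB1 was the TGF-beta isoform with the most RNA. TGFB3 was at 1.37 RPKM with HADH-S and 1.64 in the control (ratio 0.834, interval 0.463 to 1.49), and TGFB2 had no row. Of 32 other ligands of the superfamily 4 passed the filter. GDF15, a stress-induced member, had 11.2 RPKM with HADH-S against 6.27 (ratio 1.79, interval 1.26 to 2.57), and BMP1, a protease named with the family, at 4.996 against 4.11 (ratio 1.22, interval 0.927 to 1.60). The list of latency and activation had 9 genes past the filter, with a median of -0.05. Within it, the latent TGF-beta binding proteins LTBP4 (3.95 against 2.24 RPKM, ratio 1.76, interval 1.32 to 2.37) and LTBP3 (7.79 against 5.32, ratio 1.46, interval 1.21 to 1.78) were higher with HADH-S, as was TGFB1. The integrin chain genes ITGAV (11.7 against 15.1 RPKM) and ITGB1 (843 against 942), whose products take part in releasing the ligand, were lower. Their ratios were 0.779 (0.697 to 0.870) and 0.895 (0.879 to 0.912). Of the other integrin chains on the list, named after the data were seen, ITGB5 had a ratio of 0.927 (0.781 to 1.10). The interval of ITGB5 included 1, and ITGB6 and ITGB8 had no row. LTBP1 and LTBP2, named after their values were seen, had ratios of 1.01 (0.682 to 1.49) and 0.964 (0.880 to 1.06), with intervals that include 1.

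Of 10 other receptors and co-receptors of the superfamily past the filter, 7 were below 0 on the log2 scale, as TGFBR1 was, beside 47.8% of all genes tested. The interval lay under 1 for 3 of them (30%, beside 11.6% of all genes) and over 1 for 0 (beside 13.8%). The median was -0.11, and it turned to 0.06 when a mean RPKM of at least 5 was required. The activin type I receptor gene ACVR1B, whose kinase also phosphorylates SMAD2 and SMAD3, stood at 4.17 RPKM against 6.76, a ratio of 0.617 (0.427 to 0.884). Its log2 value of -0.586 lay at the limit of the 1.5-fold rule. For BMPR2, the BMP type II receptor gene, the values were 1.86 and 2.83 RPKM and the ratio 0.657 (0.533 to 0.808). ACVR2A, an activin type II receptor gene that is also frameshifted in many mismatch-repair deficient cancers, was at 1.16 against 1.42 RPKM, with an interval of 0.529 to 1.26. The co-receptor gene RGMB was the most abundant, at 38.9 against 36.6 RPKM.

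Of the SMADs outside the 8, SMAD1, SMAD5 and SMAD9 of the BMP branch passed the filter and all had intervals that included 1. SMAD5 was at 19.9 RPKM with HADH-S and 20.4 in the control, SMAD1 at 8.08 against 8.70, and SMAD9 at 2.57 against 2.19. The inhibitory SMAD6, named after the data were seen, had no row. By level per length, SMAD5 thus stood above each SMAD among the 8 members in both libraries, although SMAD2 carries the length reservation given above.

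SKI, the closest relative of SKIL and a corepressor as well, differed from it in direction. It was at 9.21 RPKM with HADH-S and 6.77 in the control, from 390 and 279 reads (ratio 1.36, interval 1.16 to 1.59). The level of SKI was 6.49 times that of SKIL in the HADH-S library and 3.36 times in the control library, a factor of 1.93 (1.35 to 2.76). TGIF1, another SMAD corepressor, was at 13.4 against 9.25 RPKM (ratio 1.45, interval 1.15 to 1.84). ZEB1, a repressor of epithelial genes that can bind SMADs, was abundant at 75.4 against 84.3 RPKM (ratio 0.894, interval 0.851 to 0.939). Of the 16 cofactors past the filter 3 had an interval above 1 and 3 below, with a median of -0.05. These are 18.75% each, beside 13.8% above and 11.6% below among all genes tested.

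Among genes that handle receptors and SMADs after synthesis, 28 passed the filter with a median of 0.00. The interval lay above 1 for 5 of them (17.9%, beside 13.8% of all genes) and below 1 for 4 (14.3%, beside 11.6%). FKBP1A, whose product holds TGFBR1 inactive, was at 97.4 RPKM against 78.5 (ratio 1.24, interval 1.06 to 1.45). USP11, a deubiquitinase, was at 9.64 against 7.30 (ratio 1.32, interval 1.08 to 1.62), and PPP1R15A, a phosphatase subunit that SMAD7 brings to TGFBR1, at 59.5 against 48.9 (ratio 1.22, interval 1.11 to 1.34). STRAP, a receptor-binding protein gene, was the most abundant at 169 against 171 RPKM. In the non-SMAD arms, 17 genes passed, 3 with an interval above 1 and 3 below (17.6% each, beside 13.8% and 11.6%). The kinase gene MAP3K7 (TAK1) had a ratio of 0.830 (0.735 to 0.936), from 14.7 and 17.7 RPKM, and its partner TAB3 one of 0.781 (0.650 to 0.938), from 4.65 and 5.95 RPKM. MAP2K3, a kinase gene downstream of TAK1, stood at 48.1 against 34.8 RPKM, a ratio of 1.38 (1.24 to 1.55). RHOA was the most abundant at 301 against 292 RPKM.

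Genes known to be induced by TGF-beta in epithelial cells had a median log2 value of 0.11 over the 21 that passed the filter, beside 0.01 for all genes. Of these 15 had a positive log2 value (71.4%, beside 52.2% of all genes). The interval lay over 1 for 5 (23.8%, beside 13.8%) and under 1 for 1 (4.76%, beside 11.6%). No test of these shares was made. CDKN1A, the p21 gene, was at 82.3 against 64.7 (ratio 1.27, interval 1.17 to 1.38), and GADD45B at 9.39 against 6.37 with an interval of 0.931 to 2.36. Both are also p53 or stress targets, as GDF15 is. PMEPA1, a feedback gene of the pathway named after its values were seen, had 1 read with HADH-S and none in the control. SMAD7 (18 and 15 reads) and PMEPA1 were thus low in both libraries.

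Among the companion genes past the filter, ID1, a target of the BMP branch, had the highest log2 value, 1.04. It was at 31.6 RPKM against 14.9 (ratio 2.12, interval 1.67 to 2.72), while ID3 had a ratio of 1.55 (1.29 to 1.88). ID2 was low, at 1.76 RPKM with HADH-S and 0.868 in the control, with an interval of 0.981 to 4.43. Of the 7 genes past the filter on that list 2 had an interval above 1 (28.6%, beside 13.8% of all genes). An interval below 1 was found for 0 of them, beside 11.6% of all genes. BAMBI and MSX1, of the same list and named after their values were seen, had negative log2 values of -0.10 and -0.09 with intervals that included 1. SMAD9, which responds to BMP as well, had a ratio of 1.17 (0.867 to 1.59).

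**Figure D5:**
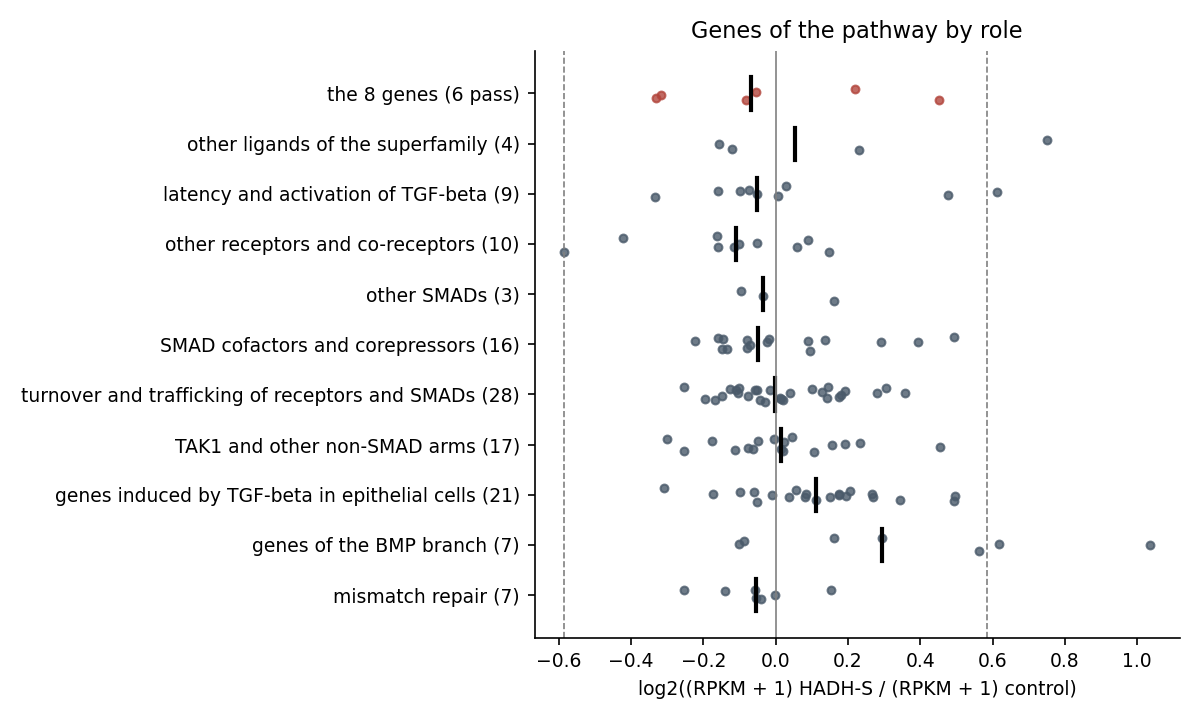
Log2 values of the genes past the filter, by role, with their number in parentheses, a black bar at each median, a solid line at 0 and dashed lines at a fold of 1.5. The 6 members lie between -0.33 and 0.45, and values past the dashed lines occur among the other ligands, latency genes, receptors and BMP branch genes.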

How the data were processed

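RNA was measured in 2 RKO libraries, 1 per condition. Total RNA was isolated with Trizol for mRNA libraries, per the labels' protocols. The authors deposited 1 RPKM value per gene and library, per the file headers. fastp 0.23.2, SAMtools 1.9 and GRCh38 are named in the submitters' processing notes. The aligner and counter of the RNA reads, the strand setting and the annotation release were not given in the sources used here.

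RPKM times transcript length was a whole multiple of 1 step per library for 100% of values, within 0.01 reads. The recovered reads add up to the totals that the steps imply. A gene with a row in 1 table only was taken as 0 reads in the other.

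Ratios carry exact conditional (Clopper-Pearson) 95% intervals, and ratios of ratios exact conditional odds-ratio intervals (scipy 1.17.1). PCR copies were not told apart by molecular identifiers, so intervals and floors cover counting error only. The pseudocount was 1. Steps were tested on simulated reads. Named were the 8 members, HADH, and of each list the 3 genes with the largest differences and the most abundant, at a mean RPKM of at least 1. Some genes that this rule takes are not reported here. With 1 difference per gene, no likeness of pattern was formed. Members and lists were chosen with earlier results of these data known. Promoters are from RefSeq (GRCh38.p14), and all 8 symbols matched. The chromatin immunoprecipitation and input libraries were not analysed here. Alternatives were other pseudocounts, folds, filters, scalings and a 99% interval.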

Additional observations from a re-analysis of the deposited data

How the results depend on the processing

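No paired analysis was possible because each condition has 1 library, and for the same reason no replicate could be left out. No member reached a fold of 1.5 in the main setting. With a pseudocount of 0.1 or 0.5, 1 member was lower by that fold, SMAD3, whose log2 value went from -0.34 to -1.54 and -0.59. With a fold of 1.2, 1 of all 8 members was higher and 3 were lower, SMAD3 included, which did not pass the filter on low values. The count of companion genes higher by 1.5-fold, 4, became 1 with a pseudocount of 5, 18 with a fold of 1.2 and 1 with a fold of 2. The count lower, 1, became 0, 5 and 0. These counts are out of 111 companion genes. Of all genes tested, 11.5% were higher and 6.76% lower by a fold of 1.2, and 0.300% and 0.0484% by a fold of 2. The shares of all genes with a pseudocount of 5 are not given here. Larger pseudocounts shrink low genes, and other folds move the limit, by construction. Per kilobase of coding length, the rank of SMAD2 moved from 5 to 2 with HADH-S and from 5 to 1 in the control. Rescaling the libraries and the 99% interval moved no count of members or companions by more than 1.5 times, although the 99% interval of SKIL included 1, and no log2 value of a member with an interval away from 1 changed sign. Depth limits SMAD3 and SMAD7 most, at 14 and 15 reads in the control.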
